A study of Mus musculus with 6 samples.

Results

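The genes described here encode 10 receptors of the immunoglobulin superfamily that raise or lower T cell responses: Cd28, Icos, Cd226, Ctla4, Pdcd1 (PD-1), Btla, Tigit, Cd96, Lag3 and Havcr2 (TIM-3). They were taken by gene symbol from the 14608 genes of the deposited tables, and all 10 symbols were found. The cells were regulatory T (Treg) cells, which hold other lymphocytes in check, sorted from mouse spleen by CD4 and the fluorescent protein YFP for RNA sequencing. The groups were wild type (WT), heterozygous knockout of the GTPase gene Cdc42 (Cdc42+/-) and homozygous knockout (Cdc42-/-), with 2 libraries each, from 2 mice per genotype. The labels name neither the promoter that drives YFP or the deletion nor the allele, strain, age or sex of the mice. Bulk RNA was measured, so fewer cells of a type and less RNA per cell cannot be told apart.

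A T cell needs a second signal beside its antigen receptor, and these receptors supply or withhold it. CD28 and CTLA-4 compete for CD80 and CD86, and CTLA-4, which Treg cells carry constitutively, also strips these ligands from antigen-presenting cells. ICOS binds ICOS ligand and signals through PI3 kinase, PD-1 binds PD-L1 and PD-L2, and BTLA binds HVEM (Tnfrsf14). TIGIT, CD96 and CD226 share nectin-family ligands such as CD155 (Pvr): CD226 activates, TIGIT inhibits, and CD96 is mostly described as inhibitory. LAG-3 binds MHC class II, and TIM-3, which myeloid cells also carry, binds galectin 9 and phosphatidylserine.

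The libraries held between 8556576 and 17796100 reads in genes, and levels are given as RPKM, read numbers scaled for gene length and library depth. Cdc42 RNA, summed over the whole gene, did not separate the genotypes (WT 166 and 161 RPKM, Cdc42+/- 164 and 156, Cdc42-/- 122 and 173), which are therefore known from the labels alone. Foxp3, the defining factor of Treg cells, was present in all 6 libraries, at 58.4 to 131 RPKM. The genotypes also differed in sex-linked RNA: for the Y-linked Ddx3y the WT libraries held 37.7 and 42.4 RPKM, the Cdc42+/- libraries 0.126 and 0, and the Cdc42-/- libraries 0.0974 and 27.5. For Xist, which is made from the inactive X chromosome of females, the values were 0.199 and 1.13 RPKM (WT), 99.3 and 93.3 (Cdc42+/-), and 87.4 and 21.2 (Cdc42-/-). Replicate 2 of Cdc42-/- thus held RNA of both genes; the design text gives 2 mice for the 2 libraries of each genotype. Neither knockout genotype had a library with the sex-linked RNA of WT, so genotype and sex cannot be told apart in either comparison with WT. The same library stood apart in markers of other cell types. The summed level of 14 myeloid marker genes was 1137 RPKM there against 10 to 27.2 RPKM in the other 5 libraries, and 14 of 14 were at their highest there. For 7 granulocyte markers the sum was 519 RPKM there against 15.5 to 57.1 elsewhere. For 4 erythroid markers it was 145 RPKM there, 17.5 in Cdc42-/- replicate 1 and 0.367 to 4.18 in the WT and Cdc42+/- libraries. The summed level of 7 T cell and Treg markers was 1660 to 1756 RPKM in WT and Cdc42+/-, 1251 in Cdc42-/- replicate 1 and 956 in replicate 2. Natural killer cells carry several of these receptors too. Only 2 of the 6 natural killer markers were in the tables, and their sum was at most 1.35 RPKM, with 1 of the 2 at 0 in each Cdc42-/- library.

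In the annotation of GRCm38, the build that the submitters' notes name as mm10, Cd28 (chr1:60746388-60773359), Ctla4 (chr1:60909025-60915832) and Icos (chr1:60960773-61000322) follow one another on the plus strand within 254 kb. Pdcd1 lies further along the same chromosome on the minus strand (chr1:94038305-94052553). Tigit (chr16:43626137-43665125, minus), Btla (chr16:45223705-45252895, plus) and Cd96 (chr16:46035652-46120248, minus) fall within 2494 kb. Lag3 is at chr6:124904359-124912434 on the minus strand and Havcr2 at chr11:46454931-46481255 on the plus strand. No member shares exon bases with another annotated gene.

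Promoter sequences from RefSeq (GRCm38.p6) were at hand for 6 of the 10 genes. The 250 bases before the start are shown, 5′ to 3′, for 3 genes whose window overlaps no annotated exon. These were called in Cdc42-/- against WT: Havcr2 and Tigit as higher and Pdcd1 as lower. The Tigit call was near the threshold, kept by 7 of 16 alternatives, and Tigit was not called against Cdc42+/-. The windows are chr11:46454681-46454930 (plus), chr16:43664185-43664434 (minus) and chr1:94052554-94052803 (minus). The Tigit window lies inside the annotated span of the gene, before the start that the promoter table lists. Capitals mark matches, on either strand, to 7 motifs of factors that act in activated T cells.
Havcr2: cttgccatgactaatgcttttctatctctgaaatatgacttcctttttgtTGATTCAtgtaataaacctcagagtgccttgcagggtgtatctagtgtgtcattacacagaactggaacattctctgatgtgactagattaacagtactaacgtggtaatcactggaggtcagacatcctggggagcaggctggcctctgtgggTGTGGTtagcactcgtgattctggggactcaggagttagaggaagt
Tigit: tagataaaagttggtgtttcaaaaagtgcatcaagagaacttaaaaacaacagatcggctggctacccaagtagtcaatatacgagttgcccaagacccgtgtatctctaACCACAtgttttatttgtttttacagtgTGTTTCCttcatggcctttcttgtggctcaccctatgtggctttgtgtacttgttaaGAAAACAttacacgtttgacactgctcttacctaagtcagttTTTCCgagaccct
Pdcd1: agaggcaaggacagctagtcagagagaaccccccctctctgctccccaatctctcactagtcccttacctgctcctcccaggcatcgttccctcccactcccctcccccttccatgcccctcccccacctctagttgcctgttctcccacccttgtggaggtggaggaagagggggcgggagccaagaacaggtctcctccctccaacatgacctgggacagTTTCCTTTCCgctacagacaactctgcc
The motifs searched were AP-1 (TGANTCA), NFAT (GGAAA), NF-kB, STAT (TTCNNNGAA), RUNX (TGTGGT), FOX (TGTTTNC) and CRE (TGACGTCA). Havcr2 held 1 AP-1 match, beginning 200 bases before the start, and 1 RUNX match at 46 bases. AP-1 was found in 6.75% and RUNX in 14% of all 32851 windows of this length. Tigit held 1 RUNX match, 2 FOX matches (17.8% of windows hold one) and 2 NFAT matches, the FOX match at 112 bases overlapping the NFAT match at 110. In Pdcd1 the matches were 2 NFAT sites, at 28 and 23 bases, a motif found in 55.6% of windows. The NF-kB, STAT and CRE motifs had no match in these 3 windows and occur in 0.98%, 7.02% and 1.55% of all. A match is a run of letters, not evidence of binding.

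In WT Treg cells the order of levels per length ran from Ctla4 (143 RPKM, mean of 2 libraries) through Cd96 (108), Cd28 (81.2), Btla (55.5), Tigit (42.6), Icos (39.9), Cd226 (33.7), Pdcd1 (29.9) and Lag3 (13.6) to Havcr2 (0.472). Neighbours in that order were apart in both libraries except Cd226 and Pdcd1, whose libraries overlapped. In Cdc42-/- the order was Ctla4 (201), Icos (177), Tigit (71.4), Btla (59.4), Cd28 (57.4), Cd96 (29), Lag3 (25.8), Havcr2 (16.6), Cd226 (9.72) and Pdcd1 (7.52). Icos thus moved from place 6 to place 2, Cd96 from 2 to 6, and Pdcd1 from 8 to 10. Tigit and Btla, Btla and Cd28, and Cd96 and Lag3 overlapped as neighbours there. The summed level of the 10 genes was 563 and 534 RPKM (WT), 634 and 593 (Cdc42+/-) and 674 and 636 (Cdc42-/-). The share of Icos in that sum was 6.86% and 7.71% (WT), 11.3% and 9.38% (Cdc42+/-), and 25.3% and 28.9% (Cdc42-/-). Cd96 held 19.7% in each WT library, but 5.36% and 3.43% in Cdc42-/-.

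**Figure D1:**
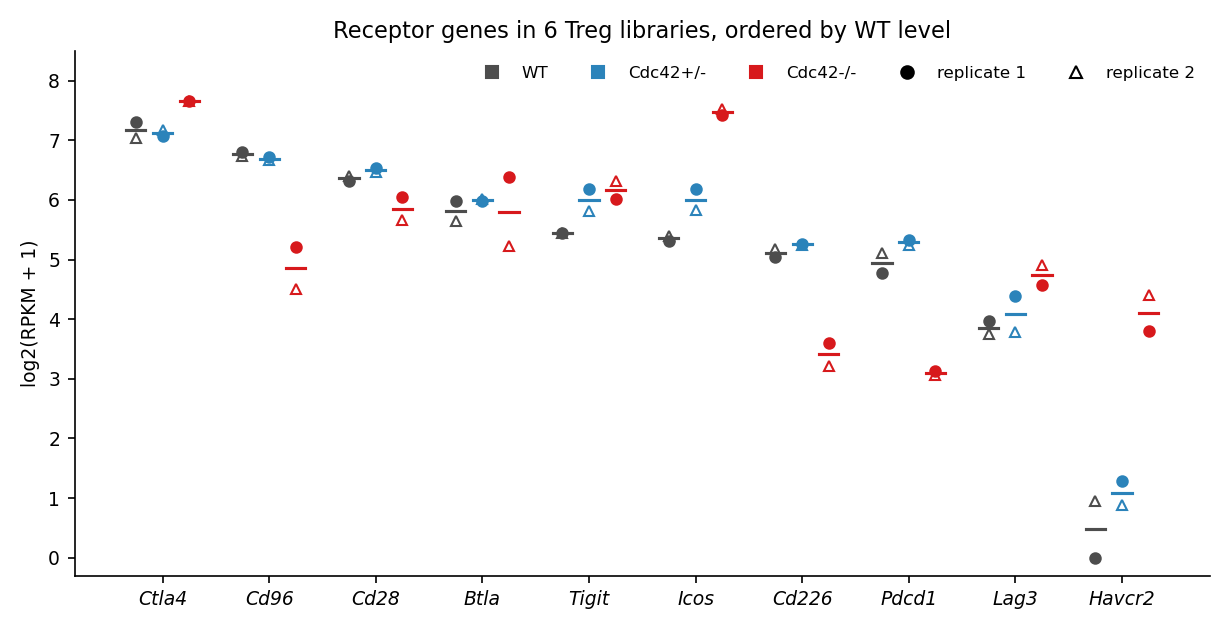
Level of the 10 receptor genes in every library, as log2(RPKM + 1), ordered by WT level. Points are libraries (circles replicate 1, triangles replicate 2), bars are means of the plotted values, and colours are genotypes; Icos and Havcr2 reach their highest values, and Cd96, Cd226 and Pdcd1 their lowest, in the 2 Cdc42-/- libraries.

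Loss of both Cdc42 alleles came with a split in this family. Icos, Havcr2 and Tigit rose against WT, while Pdcd1, Cd226 and Cd96 fell; Ctla4, Lag3, Cd28 and Btla did not pass the threshold. The test was limma on log2(RPKM + 1) over 12233 genes with Benjamini-Hochberg adjustment at 0.05, all 10 members passed its filter on low values, and fold changes below are on that log2 scale. Of all genes tested 11.4% passed (6.86% higher, 4.57% lower), against 6 of 10 members, 3 higher and 3 lower. Upper-quartile scaling turned the split of all genes from 839 higher and 559 lower to 731 and 753, and left the members at 3 and 3. Scaling each library to 4 T cell genes (Cd3e, Cd3g, Cd4 and Cd5) turned it to 4620 and 197 by raising the median of all genes to 0.57, and gave 5 higher and 3 lower members. In 9 of 10 members the Cdc42-/- and WT libraries were fully apart, as in 56% of all genes. The median log2 fold change was 0.24 over the members and 0.01 over all genes (0.53 and 0.00 without Cdc42-/- replicate 2). Without Cdc42-/- replicate 2 the count of members was 8 (5 higher, 3 lower) and that of all genes went from 1398 to 2263. Without Cdc42-/- replicate 1 they were 10 (5 and 5) and 4433. Without either WT library 4 members passed (2 and 2), with 259 or 262 of all genes.

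**Figure D2:**
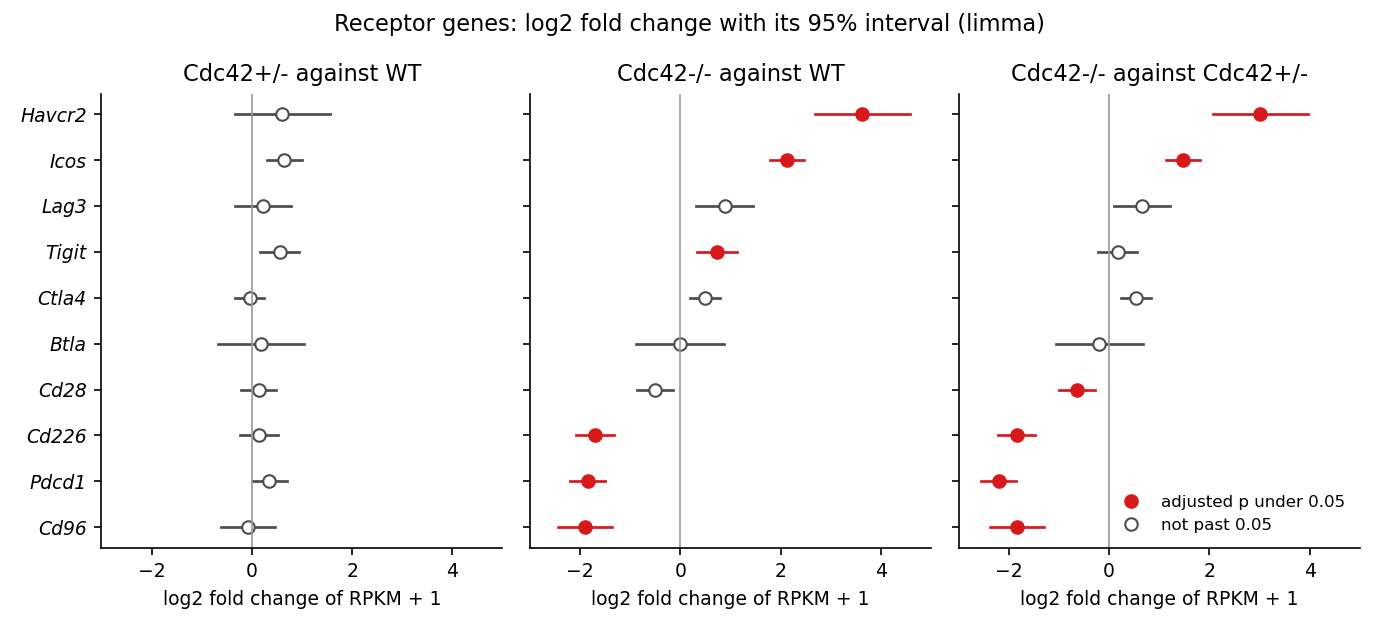
Log2 fold change of RPKM + 1 for each receptor gene with its 95% interval from limma, in the 3 comparisons between genotypes. Filled red points passed an adjusted p of 0.05; they number 0 in Cdc42+/- against WT and 6 in each of the comparisons with Cdc42-/-.

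Within the CD28 family, Icos, a costimulator that T cells raise on activation, rose. Its RPKM values were 38.6 and 41.2 (WT), 71.7 and 55.7 (Cdc42+/-), and 170 and 184 (Cdc42-/-). The 3 genotypes did not overlap, and the lowest Cdc42-/- library was 4.14 times the highest WT library. On the log2 scale Cdc42-/- exceeded WT by 2.12 (SE 0.14, limma adjusted p 0.00144), 4.44-fold between the mean RPKM, and it passed under 16 of 16 alternatives.

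Pdcd1, the gene of PD-1, went the other way. The WT libraries held 26.3 and 33.5 RPKM, the Cdc42+/- libraries 39.2 and 37.1, and the Cdc42-/- libraries 7.73 and 7.32. Both Cdc42-/- libraries were low and close together, and Cdc42+/- lay slightly above WT. The change against WT was -1.85 in log2 terms (SE 0.15, limma adjusted p 0.00191), 3.98-fold in mean RPKM, and 16 of 16 alternatives kept it past the threshold. Cd3e and Cd3g, subunits of the T cell receptor complex, also fell (log2 -0.78 and -0.80, limma adjusted p 0.0126 and 0.00895). Relative to Cd3e in the same library, Pdcd1 stood at 0.0707 and 0.0879 in WT and at 0.0326 and 0.0362 in Cdc42-/-, still without overlap.

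Ctla4 was the most abundant member in every library. It reached 157 and 130 RPKM in the WT libraries, 134 and 143 in the heterozygous and 202 and 201 in the homozygous ones. Both Cdc42-/- libraries were above all others, but the log2 fold change of 0.49 against WT (95% interval 0.20 to 0.79) fell just short, with an adjusted p of 0.0524 by limma. It passed under 4 of 16 alternatives, among them the fit without Cdc42-/- replicate 2 (0.0342).

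For Cd28, the founding costimulatory receptor, the levels were 78.7 and 83.7 RPKM (WT), 91.5 and 87.2 (Cdc42+/-), and 65.1 and 49.7 (Cdc42-/-). Both Cdc42-/- libraries were lowest. The log2 difference from WT was -0.51 (95% interval -0.86 to -0.15, limma adjusted p 0.0767). Relative to Cd3e the order turned: Cd28 was at 0.211 and 0.219 of Cd3e in WT and at 0.274 and 0.246 in Cdc42-/-. Cd3e itself fell from 372 and 382 RPKM in WT to 237 and 202 in Cdc42-/-. This ratio therefore cannot show a rise of Cd28 per T cell. Cd4 fell less than Cd3e, from 193 and 185 to 172 and 131 RPKM. Btla, which restrains lymphocytes on binding HVEM, had 62.2 and 48.9 RPKM in the WT libraries, 62.5 and 63.3 in the heterozygous and 82.4 and 36.3 in the homozygous ones. Its Cdc42-/- libraries lay on either side of all others and differed by 1.16 on the log2 scale, where the median gene differed by 0.30 in that genotype. No direction could be given for Btla (-0.01 against WT, 95% interval -0.88 to 0.86, limma adjusted p 0.989). Its value was 0.57 (adjusted p 0.0354) without Cdc42-/- replicate 2 and -0.59 (0.0201) without replicate 1.

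Among the receptors for nectin-family ligands, Cd96 and the activating Cd226 both fell. Cd226 levels were 32.1 and 35.3 RPKM (WT), 37.3 and 37 (Cdc42+/-), and 11.2 and 8.28 (Cdc42-/-). Both Cdc42-/- libraries were well below the rest. The log2 fold change was -1.71 (SE 0.16, limma adjusted p 0.00271), 3.47-fold lower in mean RPKM, and held under 16 of 16 alternatives. The WT libraries had 111 and 105 RPKM of Cd96, the heterozygous ones 104 and 101, and the homozygous ones 36.1 and 21.8. WT and Cdc42+/- lay close together, far above Cdc42-/-. Its log2 fold change was -1.90 (SE 0.22, limma adjusted p 0.00521), 3.73-fold lower, and it missed the threshold in 2 of 16 alternatives, the fits without WT replicate 1 (0.0643) and without WT replicate 2 (0.0606). Relative to Cd3e, Cd96 was at 0.298 and 0.275 in WT and at 0.152 and 0.108 in Cdc42-/-, and Cd226 at 0.0863 and 0.0924 against 0.0471 and 0.041.

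Tigit, the inhibitory member of that set, had 42.5 and 42.8 RPKM (WT), 71.9 and 55.5 (Cdc42+/-), and 63.8 and 78.9 (Cdc42-/-). Both knockout genotypes lay above WT and overlapped each other. The log2 fold change of Cdc42-/- against WT was 0.72 (SE 0.16, limma adjusted p 0.0413), 1.67-fold in mean RPKM. That call was near the threshold: 7 of 16 alternatives kept it, and voom on recovered reads gave 0.0539, with a range over all alternatives of 0.00534 to 0.212. It was lost when the fit held just the WT and Cdc42-/- libraries (0.0739), and with the replicate block (0.0654). It was also lost without WT replicate 1 (0.197), WT replicate 2 (0.212), Cdc42+/- replicate 1 (0.0734) and Cdc42+/- replicate 2 (0.0726).

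Of the remaining inhibitory receptors, Havcr2 rose from the lowest WT level of the 10 genes. WT replicate 1 had 0 of its reads, which allows up to 0.0692 RPKM (3 reads; counting error only), and WT replicate 2 had 22 reads or 0.943 RPKM. Cdc42+/- was at 1.44 and 0.845 RPKM and Cdc42-/- at 13 and 20.1 RPKM, from 393 and 501 reads. The lower Cdc42-/- library was 13.8 times the higher WT library. The log2 fold change was 3.63 (SE 0.39, limma adjusted p 0.00411), and 16 of 16 alternatives kept the call, with log2 values between 1.97 (pseudocount 5) and 7.91 (voom). With replicate 1 as the lone Cdc42-/- library the difference from WT was 3.33 on the log2 scale (limma adjusted p 0.00346). The myeloid markers summed to 10 and 14.9 RPKM (WT), 23.6 and 25.6 (Cdc42+/-), and 27.2 and 1137 (Cdc42-/-). Their part in the Havcr2 values was not tested.

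Lag3 levels were 14.6 and 12.5 RPKM (WT), 19.9 and 12.8 (Cdc42+/-), and 22.8 and 28.9 (Cdc42-/-). Both Cdc42-/- libraries were above all others. With a log2 fold change of 0.88 (95% interval 0.31 to 1.44, limma adjusted p 0.0628) it did not pass, and 2 of 16 alternatives called it. The log2 value of Lag3 was 1.04 without Cdc42-/- replicate 1 and 0.71 without Cdc42-/- replicate 2.

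The authors' deposited table for this comparison, whose test its headers do not name, lists 5 of the members past an adjusted p of 0.05: Icos, Havcr2, Pdcd1, Cd226 and Cd96. Over all genes the authors' deposited table lists 8.66% past it. In the authors' deposited table Tigit has an adjusted p of 0.111.

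In Cdc42+/- against WT, where 1 allele is lost, 0 of 10 members passed limma's threshold, as did 0% of the 12233 genes, and voom also called 0 members. The Cdc42+/- and WT libraries were apart in 7 of 10 members and in 43.2% of all genes. An unadjusted p under 0.05 was found for 2 of 10 members, Icos and Tigit, and for 4.32% of all genes. Icos had a log2 fold change of 0.65 (SE 0.14, limma adjusted p 0.492, lowest value over 16 alternatives 0.0996) and Tigit one of 0.56 (SE 0.16, adjusted p 0.802, lowest 0.159). In both, the Cdc42+/- libraries lay above WT. The authors' deposited table lists both genes for this comparison, Icos with an adjusted p of 2.21e-05 and Tigit with 0.0175, where 2.28% of all genes are listed. Of the genes that fell in Cdc42-/-, Pdcd1 had a log2 value of 0.35 (95% interval -0.00 to 0.70), Cd226 0.14 (-0.24 to 0.52) and Cd96 -0.07 (-0.61 to 0.46) in Cdc42+/- against WT. This comparison and the one above share the WT libraries.

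The loss of the second allele was read from Cdc42-/- against Cdc42+/-. Icos and Havcr2 rose and Pdcd1, Cd226, Cd96 and Cd28 fell, 6 of 10 members, where limma called 8.22% of all genes (4.68% higher, 3.54% lower). The libraries were apart in 8 of 10 members, against 59% of all genes. Icos rose by 1.47 (SE 0.14, limma adjusted p 0.00811) and Havcr2 by 3.02 (SE 0.39, 0.0125). The Havcr2 call was also lost with a pseudocount of 0.1 (limma adjusted p 0.0794), and 13 of 16 alternatives kept it. The log2 change was -2.20 for Pdcd1 (SE 0.15, limma adjusted p 0.00739), -1.84 for Cd226 (SE 0.16, 0.00808) and -1.83 for Cd96 (SE 0.22, 0.0107). Cd28 was just inside the threshold (-0.64, SE 0.14, limma adjusted p 0.05). It was called by 6 of 16 alternatives, and its sign turned (0.05) with scaling to the T cell genes. Ctla4 was just outside, at 0.53 (95% interval 0.24 to 0.83, limma adjusted p 0.0504). Tigit, called against WT, differed here by 0.17 (95% interval -0.23 to 0.56, limma adjusted p 0.542). Without either Cdc42+/- library 0 of the members and 0 of all genes passed in this comparison, and without Cdc42-/- replicate 1 the count of members was 9 while that of all genes went from 1006 to 4263.

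Ratios between receptors of the same library do not depend on how the library was scaled. The ratio of Icos to Cd28, the costimulators that act through PI3 kinase, was 0.491 and 0.492 (WT), 0.784 and 0.639 (Cdc42+/-) and 2.62 and 3.69 (Cdc42-/-). The genotypes did not overlap. The ratio of Ctla4 to Cd28, which bind the same ligands, was 1.99 and 1.55 (WT), 1.47 and 1.64 (Cdc42+/-) and 3.1 and 4.04 (Cdc42-/-). Both Cdc42-/- libraries stood above the rest.

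For the competing receptors of CD155, the ratio of Tigit to Cd226 was 1.32 and 1.21 (WT), 1.93 and 1.5 (Cdc42+/-) and 5.72 and 9.53 (Cdc42-/-). Tigit to Cd96 went from 0.382 and 0.408 in WT over 0.688 and 0.55 to 1.77 and 3.61. Here the sides changed places, with Cd96 the more abundant RNA in WT and Cdc42+/- and Tigit in Cdc42-/-. Cd96 to Cd226, by comparison, was 3.46 and 2.98 in WT and 3.24 and 2.64 in Cdc42-/-, with overlapping libraries. No test was run on the ratios, which are given as a description.

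**Figure D3:**
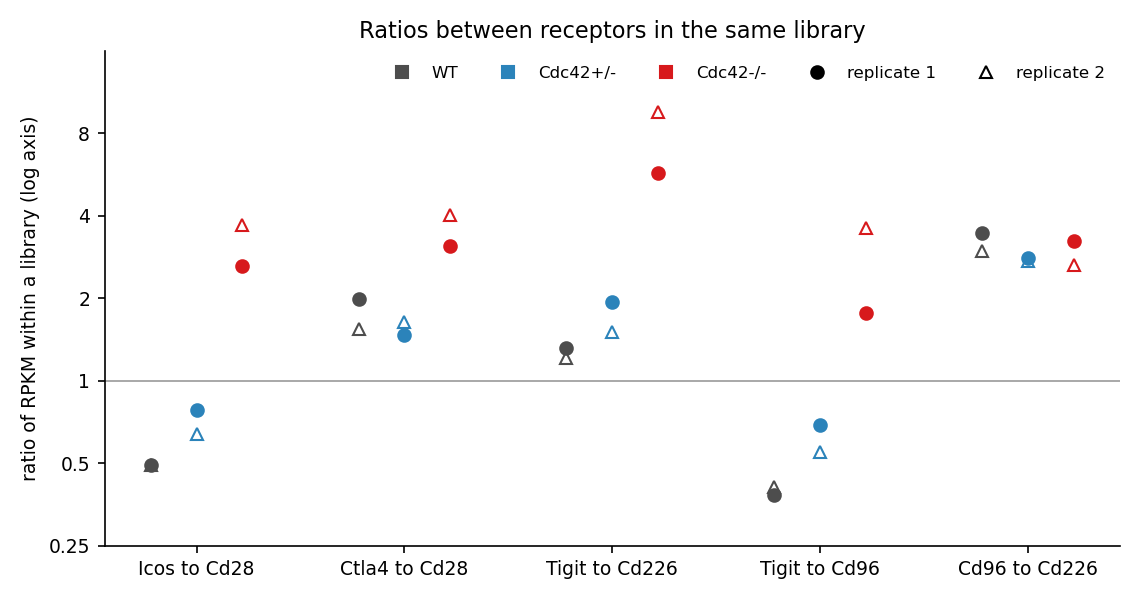
Ratio of RPKM between 2 receptors of the same library on a log axis, by genotype (colour) and replicate (circle or triangle). Icos to Cd28, Ctla4 to Cd28, Tigit to Cd226 and Tigit to Cd96 are highest in both Cdc42-/- libraries, while Cd96 to Cd226 stays between 2.64 and 3.46 in all 6.

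The ligands of these receptors were followed in a list of 16 symbols, of which 14 were tested. In Cdc42-/- against WT, 3 rose, 1 fell and 10 did not pass, where 6.86% of all genes rose and 4.57% fell. The median was 0.67, against 0.01 over all genes, and 0.33 without Cdc42-/- replicate 2, the library with 1137 RPKM of myeloid markers. In that library the MHC class II genes H2-Aa and H2-Ab1 stood at 41.2 and 41.5 RPKM and Ceacam1 at 12.3, against 2.96, 1.59 and 0.532 in replicate 1. By limma H2-Aa, H2-Ab1 and Ceacam1 did not pass against WT. The authors' deposited table lists them with adjusted p of 0.0128, 0.0012 and 0.0057. The part of the myeloid RNA in that median was not tested. With scaling to the T cell genes 7 ligands passed as higher and 1 as lower, where the genes overall had 4620 and 197. Cd86, a ligand of CD28 and CTLA-4 that T cells also carry, fell from 20.1 and 19.5 to 5.48 and 6.34 RPKM (log2 -1.59, SE 0.14, limma adjusted p 0.00248) and passed under 16 of 16 alternatives. Cd80, the other ligand of both, rose from 1.37 and 0.962 to 3.83 and 3.41 RPKM (1.10, SE 0.22, limma adjusted p 0.0284). Its reads were few, 37 and 14 in WT and 72 and 53 in Cdc42-/-. The Cd80 call was kept by 8 of 16 alternatives, with log2 values from 0.48 to 1.57. In the authors' deposited table Cd80 has an adjusted p of 0.311. The ratio of Cd80 to Cd86 was 0.068 and 0.0494 (WT), 0.136 and 0.13 (Cdc42+/-) and 0.698 and 0.538 (Cdc42-/-).

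Cd274, which encodes PD-L1, rose from 30.4 and 26.7 to 46.5 and 43 RPKM (0.63, SE 0.12, limma adjusted p 0.0222) while the gene of its receptor PD-1 fell. The Cd274 call was kept by 10 of 16 alternatives. In the authors' deposited table Cd274 has an adjusted p of 0.104. Hmgb1, a nuclear protein also described as a TIM-3 ligand, was at 89.1 and 102 RPKM in WT and at 144 and 199 in Cdc42-/- (0.83, SE 0.17, adjusted p 0.0331 by limma). Pvr, the gene of CD155, was at 19.7 and 14.5 RPKM in WT and at 21.1 and 15.4 in Cdc42-/- (0.09, adjusted p 0.809). Against Cdc42+/-, Cd86 fell (-1.38, adjusted p 0.00849) and Icosl (0.84, 0.0389), Cd274 (0.55, 0.0408) and Hmgb1 (0.79, 0.045) rose by limma, where 4.68% of all genes rose and 3.54% fell. Fewer ligands passed against WT with any single WT or Cdc42+/- library left out, and more without Cdc42-/- replicate 1. The count over all genes moved in the same direction in each of these fits.

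Among 15 tested genes of a list of 16 other immunoglobulin-family receptors, 0 rose and 4 fell in Cdc42-/- against WT (median -0.43), where 6.86% of all genes rose and 4.57% fell. The genes that fell were Cd101 (12.4 and 11.8 to 5.25 and 3.96 RPKM, limma adjusted p 0.01), Cd84 (43.4 and 40.5 to 24.7 and 20.2, 0.0108), Cd160 (5.21 and 4.29 to 1.23 and 1.78, 0.0282) and Ly9 (74.5 and 77 to 55.6 and 46.1, 0.035). CD101 and CD160 are receptors with inhibitory functions on T cells, and CD84 and LY9 belong to the SLAM family. Against Cdc42+/-, 5 fell by limma: these 4 and Cd200r1 (18.3 and 17.8 to 3.83 and 8.86 RPKM, adjusted p 0.0453), where 3.54% of all genes fell. Cd160 was near the threshold there (adjusted p 0.0478 by limma, called by 4 of 16 alternatives). Upper-quartile scaling gave 0 higher and 6 lower against WT, while the lower genes overall went from 559 to 753. With scaling to the T cell genes the list had 3 higher and 1 lower, where the genes overall had 4620 and 197, and Ly9 changed sign (0.05). Leaving out a WT or Cdc42+/- library lowered the count of this list against WT, and leaving out Cdc42-/- replicate 1 raised it. So did the count over all genes in the same fits.

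Of 14 signalling proteins of the receptors, such as PI3 kinase subunits and the phosphatases Ptpn6 and Ptpn11, 1 fell and 13 did not pass in Cdc42-/- against WT (median -0.08, and 0.02 without Cdc42-/- replicate 2), where 11.4% of all genes passed. With scaling to the T cell genes 8 passed as higher and 0 as lower, where the genes overall had 4620 and 197. Fyn, a Src-family kinase, went from 156 and 161 to 117 and 97.5 RPKM (-0.56, SE 0.12, limma adjusted p 0.0382; 0.07 with scaling to the T cell genes) and fell against Cdc42+/- too (-0.54, 0.0495). The Fyn call against WT was lost with any single WT or Cdc42+/- library left out, and more signalling genes passed without Cdc42-/- replicate 1. Calls over all genes also became fewer and more, respectively, in these fits. Of 9 tested genes for the transport of CTLA-4, 2 rose and 1 fell (median 0.32), where 6.86% of all genes rose and 4.57% fell. With scaling to the T cell genes 7 of them passed as higher and 1 as lower, where the genes overall had 4620 and 197. Lax1, an adaptor described in CTLA-4 transport to the surface, fell from 47.8 and 48 to 22.6 and 20.3 RPKM (-1.12, SE 0.11, adjusted p 0.00355 by limma), and against Cdc42+/- too (-1.35, 0.00808). The GTPase Rab8a rose from 64.9 and 60.5 to 92.6 and 88.6 RPKM (0.52, limma adjusted p 0.0247), and the clathrin adaptor subunit Ap1m1 from 52.2 and 46.2 to 80 and 66.2 RPKM (0.56, 0.0471). Ap1m1 was near the threshold and was called by 5 of 16 alternatives, Rab8a by 10. The transport genes passing were fewer with any single WT or Cdc42+/- library left out and more without Cdc42-/- replicate 1. The same held for the count over all genes.

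**Figure D4:**
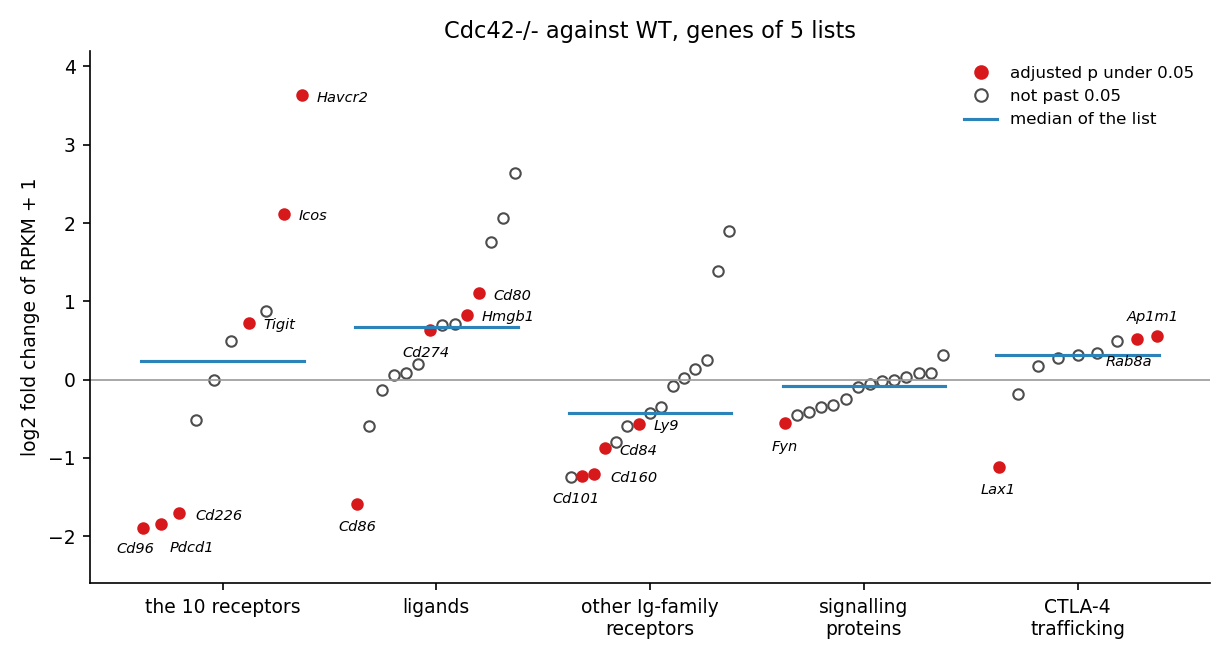
Log2 fold change of RPKM + 1 in Cdc42-/- against WT for the tested genes of 5 lists, each point a gene and the blue line the list's median. Named red points passed an adjusted p of 0.05 by limma; the receptors spread from -1.90 (Cd96) to 3.63 (Havcr2).

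For each of the 6 members called against WT, the genes with the most similar profile were looked up among 8113 genes, by the root mean square difference of centred log2(RPKM + 1) over the 6 libraries. This is a description of 3 genotypes with 2 libraries each. Nearest to Icos were Tcf19 (0.058) and Incenp (0.113), nearest to Pdcd1 were Itgb8 (0.182) and Pear1 (0.204), and nearest to Tigit were Man2a1 (0.104) and Crmp1 (0.109). Pear1 (0.077) and Lclat1 (0.125) were nearest to Cd226, and Ephx1 (0.067) and Sesn1 (0.089) to Cd96. The genes nearest to Havcr2 lay farther off, Gzma at 0.329 and Pdlim4 at 0.373. Tcf19 ran from 4.81 and 5.22 RPKM in WT over 9.21 and 7.7 in Cdc42+/- to 23.2 and 24 in Cdc42-/-, and Ephx1 from 107 and 111 over 100 and 93.6 to 33.6 and 20.1.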

How the data were processed

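Per the labels' protocols, splenic CD4 cells were enriched on magnetic columns, sorted for CD4 and YFP, and sequenced from Illumina TruSeq libraries. Per the submitters' processing notes, TopHat and mm10 were used; counting, annotation and strand setting are not given in the sources used here. The authors deposited 2 tables of 14608 genes, each against WT. Their library columns hold RPKM, worked out from the deposited values: with the deposited group means, a signal of reads over size factors, they gave whole reads for 100% of values (tolerance 0.001). Per the file headers, the deposited tables also give each gene's fold change as a ratio and in log2, and a raw and an adjusted p-value. Columns of unknown sample numbered 0.

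limma 3.58.1 in R 4.3.3 (lmFit, eBayes with trend) was run on log2(RPKM + 1) of 12233 genes (mean RPKM 0.5 or higher), 6 libraries in 1 fit, Benjamini-Hochberg threshold 0.05. Intervals are limma's. With 2 mice per genotype, p-values rest on few samples. The steps were tested on simulated data. The alternatives changed the pseudocount, filter, scaling, weights, libraries in the fit, replicate block and test (voom on recovered reads). Members, lists and tests were chosen with earlier results of these data known. Named genes were the members, up to 4 genes with the smallest p past the threshold per list and comparison, the 2 nearest profiles of each member called against WT, and checks and markers. Of the ligand and receptor lists 1 symbol each was not in the tables. 1 ligand and 1 transport gene fell under the filter.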

Additional observations from a re-analysis of the deposited data

How the results depend on the processing

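Of the 16 alternatives all but voom changed 1 choice each, while voom changed the input, offset, scaling and weights together. With T cell gene scaling, chosen after seeing the data (each library divided by the mean level of Cd3e, Cd3g, Cd4 and Cd5), the median of all genes moved to 0.57 in Cdc42-/- against WT and 0.61 against Cdc42+/-. Members past the threshold were then 8 (5 higher, 3 lower) against WT, with Pdcd1 at -1.27, Cd226 at -1.12 and Cd96 at -1.29, and signs turned in both comparisons for Cd28 (0.12 and 0.05), Btla (0.61 and 0.49), Ly9 (0.05 and 0.11) and Fyn (0.07 and 0.15). That scaling gave 8 ligands (7 higher, 1 lower), 4 other receptors (3 higher, 1 lower), 8 signalling genes (8 higher, 0 lower), 8 transport genes (7 higher, 1 lower), 4817 genes overall against WT (4620 higher, 197 lower) and 5200 against Cdc42+/-. Its shift comes from the scaling genes being lower in Cdc42-/-. With only the genotypes compared in the fit (fewer libraries for the spread), 1 ligand, 1 other receptor, 0 signalling genes, 1 transport gene and 536 genes passed in Cdc42-/- against WT, 60 in Cdc42+/- against WT and 276 in Cdc42-/- against Cdc42+/-. Array weights gave 2 ligands, 0 signalling genes, 1 transport gene, 885 genes against WT and 88 in Cdc42+/-, and voom gave 1 gene in Cdc42+/-; the cause was not tested.

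Leaving out 1 library at a time, where a lone library is assumed to vary like the other groups, gave 4 to 10 members, 1 to 10 ligands, 0 to 10 other receptors, 0 to 8 signalling and 1 to 6 transport genes in Cdc42-/- against WT, and 0 to 9 members in Cdc42-/- against Cdc42+/-. All genes ranged from 259 to 4433, from 0 to 76 in Cdc42+/- and from 0 to 4263 against Cdc42+/-. The counts were highest without Cdc42-/- replicate 1. Signs turned for Btla (-0.59 to 0.57 against WT, -0.78 to 0.38 against Cdc42+/-), for Ctla4 (-0.18 to 0.09) and Lag3 (-0.07 to 0.53) in Cdc42+/- against WT, and for Tigit (-0.02 to 0.35) against Cdc42+/-. Libraries that share a replicate number share only that number: the correlations of their deviations were 0.0177, 0.202 and -0.0343. With the replicate block, 5 members passed against WT (2 higher, 3 lower). Of 832 values of single genes under alternatives, 649 kept their side of the threshold and their sign.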

Other observations

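A few genes of the receptor and ligand lists were high in Cdc42-/- replicate 2 and low in every other library. Lair1, an inhibitory collagen receptor, was at 20.9 RPKM there and at 0.49 to 1.47 RPKM in the other 5 libraries. Cd244, a SLAM-family receptor of natural killer and myeloid cells, was at 8.19 RPKM against 0.201 to 0.613. Neither gene passed in Cdc42-/- against WT by limma (adjusted p 0.253 and 0.318). In the authors' deposited table Cd244 is past the threshold, with an adjusted p of 0.0343. The myeloid marker Lyz2 was at 600 RPKM in the same library and at most at 9.75 RPKM in the others, and its part in these values was not tested.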
